A study of Mus musculus with 4 samples.

Results

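A group of 89 array probes was at least 2.5 log2 units higher 4 h after a cOS-pulse than in the control and lay within 1 log2 unit of the control again at 20 h and 32 h. These probes are 89 of the 39429 on the array and 89 of the 19697 that were well above background on all 4 arrays (0.452%), and they carry 82 gene names. A symbol known to RefSeq was found for 77 of them, which stand for 70 genes, and the other 12 probes have only a transcript or probe identifier. The members were chosen by their measured values on all 4 arrays (both thresholds and the requirement of detection), so their differences at 4 h, 20 h and 32 h are given as a description.

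Total RNA of NIH-3T3:Per2-Luc, an established mouse embryonic fibroblast line that carries a luciferase gene under the *Per2* promoter, was hybridized to one-color arrays. Cells were exposed to 5 mM H2O2 for 10 min, a critical oxidative stress called the cOS-pulse, and collected 4 h, 20 h or 32 h later, while control cells received 0 mM H2O2 in fresh medium and are labelled 4 h. Each of these 4 groups is 1 array with no replicate, all late times share the single control, and no test between groups can be made. The culture had fibroblast character on every array, since all 11 probes of 10 fibroblast markers (*Col1a1*, *Vim*, *Pdgfrb* and others) were well above background on each.

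Oxidative stress is known to switch on several gene programs that are shared by many cell types. The transcription factor Nrf2 drives detoxifying and antioxidant genes, ATF4 drives amino acid supply and one-carbon metabolism, HSF1 drives chaperones, p53 drives cell cycle arrest, and NF-kappa-B drives cytokines and chemokines. Many of these responses are transient, because feedback inhibitors arise with the response and the messages of cytokines and growth factors decay fast. Salivary amylase, granzyme M and oviduct glycoprotein, whose genes are *Amy1*, *Gzmm* and *Ovgp1*, belong to none of these programs and are known from the salivary gland, natural killer cells and the oviduct.

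Sequence is shown for a few genes because a probe sees only what it matches and because genes that move together can be compared in the bases before their starts. The probe of *Amy1* shares a run of 23 bases with a probe of *Amy2a5*, a pancreatic amylase gene. Below, 30 bases of each 60-base probe are given as printed on the array, 5′ to 3′, with the shared run in capitals.
Amy1 probe, bases 18 to 47: gaaGACCCATTTATTGCAATCCATGCagag
Amy2a5 probe, bases 4 to 33: gagGACCCATTTATTGCAATCCATGCtgac

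The 250 bases before the start are shown for 2 members of the NF-kappa-B list, *Il6* and *Cxcl1*, and for *Amy1*, *Gzmm* and *Ovgp1*, which are on no stress list. The window of *Ptgs2*, also on the NF-kappa-B list, held no match to any motif searched and is not shown. They come from RefSeq (GRCm38.p6), 5′ to 3′ on the strand of the gene, and the capitals mark each match to 1 of 8 motifs searched on both strands. For *Amy1* and *Gzmm*, RefSeq lists 2 starts, and the window that held a match is shown.
Il6, chr5:30012864-30013113, plus strand: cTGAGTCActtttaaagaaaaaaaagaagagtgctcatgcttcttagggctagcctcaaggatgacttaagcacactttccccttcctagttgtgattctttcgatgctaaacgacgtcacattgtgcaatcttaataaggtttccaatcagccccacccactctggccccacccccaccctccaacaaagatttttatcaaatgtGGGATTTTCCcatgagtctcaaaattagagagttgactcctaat
Cxcl1, chr5:90890995-90891244, plus strand: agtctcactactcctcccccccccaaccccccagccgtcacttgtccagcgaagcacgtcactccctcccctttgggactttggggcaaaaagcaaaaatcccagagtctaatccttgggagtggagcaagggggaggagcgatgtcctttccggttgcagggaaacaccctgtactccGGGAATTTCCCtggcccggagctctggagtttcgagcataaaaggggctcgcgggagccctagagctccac
Ovgp1, chr3:105973552-105973801, plus strand: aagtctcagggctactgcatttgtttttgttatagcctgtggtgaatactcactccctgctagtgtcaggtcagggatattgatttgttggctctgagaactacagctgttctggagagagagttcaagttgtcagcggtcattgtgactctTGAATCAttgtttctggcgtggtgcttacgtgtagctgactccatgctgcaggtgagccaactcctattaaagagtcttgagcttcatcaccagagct
Amy1, chr3:113574763-113575012, minus strand: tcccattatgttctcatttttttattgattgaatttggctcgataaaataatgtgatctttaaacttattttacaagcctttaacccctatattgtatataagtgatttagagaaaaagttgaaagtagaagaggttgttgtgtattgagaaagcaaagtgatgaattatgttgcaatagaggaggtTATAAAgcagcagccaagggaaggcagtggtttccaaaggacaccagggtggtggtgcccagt
Gzmm, chr10:79693576-79693825, plus strand: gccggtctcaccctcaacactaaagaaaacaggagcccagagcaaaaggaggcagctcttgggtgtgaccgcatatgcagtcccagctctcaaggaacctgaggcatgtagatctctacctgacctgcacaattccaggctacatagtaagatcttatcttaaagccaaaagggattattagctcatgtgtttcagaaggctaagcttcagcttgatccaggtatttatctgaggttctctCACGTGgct

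The marked matches in *Il6* are an AP-1 site (TGANTCA, where N is any base) and a kappa-B element, and in *Cxcl1* a pair of overlapping kappa-B elements. *Ovgp1* has a match to the AP-1 letters with A as the middle base (TGAATCA). *Amy1* has a TATA box (TATAAA) and *Gzmm* an E-box (CACGTG). Of the 70 named member genes, 56 were in the promoter table, with 74 windows. *Hmox1*, the only member gene on the Nrf2 list, and *Csf3*, on the NF-kappa-B list, were not in it. The shares below leave them out. The AP-1 letters were in 13 of these 56 genes (23.2%), against 7.82% of all 27025 genes in the table. They were *Adssl1*, *Apobr*, *Ghrl*, *Grin3b*, *H2-DMa*, *Il6*, *Ovgp1*, *Procr*, *Sdcbp2*, *Serpinb2*, *Slc7a1*, *Tcp10a* and *Tcp10b*, of which the last pair are near copies of one family. The kappa-B element was in 6 of the 56 (10.71%, all genes 8.23%), the core of the antioxidant response element (TGACNNNGC) in 6 (10.71%, all genes 11.5%), the TATA box in 10 (17.9%, all genes 14.3%) and the E-box in 4 (7.14%, all genes 6.86%). Paired heat shock units (GAANNTTC) were in 2 (3.57%, all genes 7.73%), the C/EBP-ATF element (TGATGCAA) was in 1 (1.79%, all genes 0.918%), and the cAMP response element (TGACGTCA) was in none of the 56 (all genes 1.77%). These are matches of letters, and binding was not measured.

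Levels below are log2 signals minus the 75th percentile of their array, and differences are log2 differences from the control with the combined spot error of both arrays, which is the scanner's own error of a spot and does not cover variation between cultures. Over the 89 members the difference at 4 h ran from 2.502 to 5.72 with a median of 3.08, against a median of 0.17 over all probes tested. The spot error lay between 0.20 and 0.35 and each difference was at least 8.08 times its error. At least 4 log2 units separated the arrays for 12 members, at least 3 for 48, and 41 lay from 2.5 to 3. With other scalings the median over all probes tested at 4 h shifted by as much as -0.36 (scaling by the array median), and the member differences shifted with it.

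**Figure D1:**
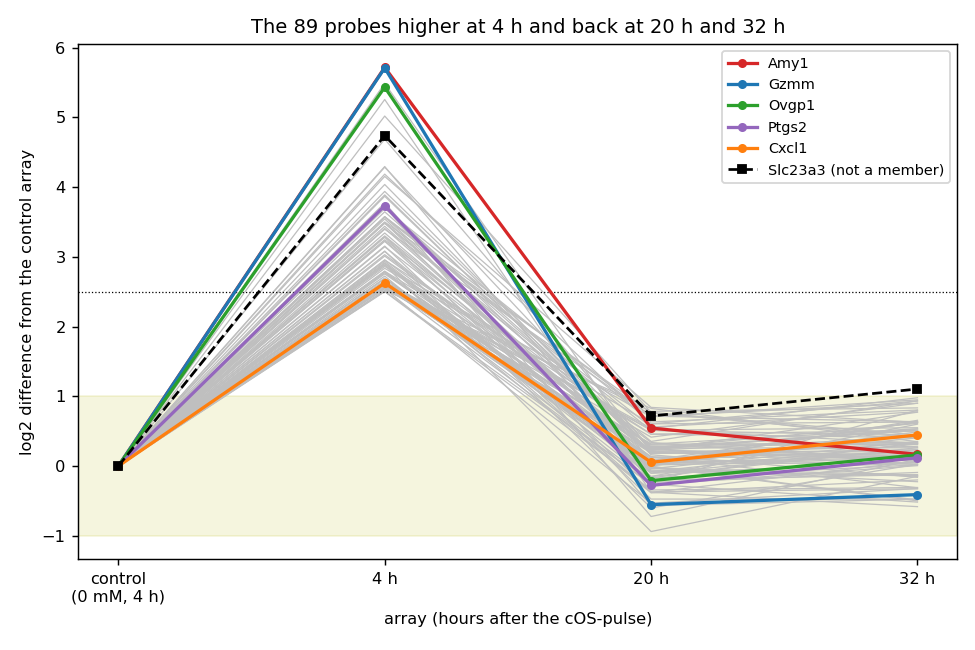
Log2 difference from the control array (vertical axis) for the 4 arrays, the control and 3 times after the cOS-pulse (horizontal axis), with 1 grey line per member probe. The dotted line is the 2.5 threshold at 4 h and the band the window of 1 on either side of the control, and *Slc23a3* (dashed) leaves the band at 32 h with 1.11.

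*Amy1*, the salivary amylase that splits starch, had the largest difference of the group with the main processing. Its probe (mm9 chromosome 3, 113258901 to 113258960) had a level of -4.61 in the control, 1.11 at 4 h, -4.06 at 20 h and -4.44 at 32 h. The 4 h array thus stood 5.72 ± 0.35 above the control (52.6-fold), and the late arrays 0.55 ± 0.38 and 0.17 ± 0.44. The control level lay only 0.15 above the lowest level detected on that array, -4.76. Both the size and the rank depended on the background correction. With normexp correction the difference of *Amy1* at 4 h was 4.25, below those of *Gzmm* (4.83), *Ovgp1* (4.63) and *Gm3448* (4.32). Both probes of *Amy2a5* were not well above background in the control and were so at 4 h, at least 4.85-fold and 7.48-fold higher, the first of them also being detected at 20 h. The probe of *Amy2a4* stayed in the background on all 4. A further member, TC1733495, whose annotation is an amylase, lay on the same chromosome and had -4.28, 0.74, -3.51 and -3.84 in the same order, a difference of 5.02 ± 0.34 at 4 h. Of the other amylase probes, only 1 of *Amy2a5* shared a run of at least 20 bases with the *Amy1* probe. Signal of these 2 probes cannot be told apart with certainty. Whether the remaining amylase probes see only their own gene was not tested. Of 8 probes for 7 markers of acinar cells, *Amy2a5* among them, 2 were detected in the control, 4 at 4 h, 3 at 20 h and 2 at 32 h, and *Cpa1*, *Cpb1*, *Pnlip* and *Prss2* on no array. The summed linear level of that list was 0.38, 0.75, 0.49 and 0.33 in the same order. The 2 probes detected at 4 h and not in the control were those of *Amy2a5*. Their levels were -7.07 and -6.07 in the control and -2.48 and -1.86 at 4 h. The 2 probes of the list detected on all arrays had differences of -0.84 and 0.53 at 4 h. The part of this list in the *Amy1* result was not tested.

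*Gzmm*, a serine protease of cytotoxic granules (chromosome 10, 79157946 to 79158005), had -3.55 in the control, 2.15 at 4 h, -4.11 at 20 h and -3.96 at 32 h. Only the 4 h array was high, by 5.71 ± 0.25 (52.3-fold), and both late arrays were below the control, by -0.55 ± 0.30 and -0.41 ± 0.33. Of the 13 probes for granzymes and perforin, 10 were not well above background on either the control or the 4 h array. The probes of *Gzmk* and *Prf1* that were measured had differences of 0.22 ± 0.22 and 0.46 ± 0.21, below 2-fold. *Gzmm*, also among the 3 measured probes, was chosen for its rise. Of all probes tested, 8.42% were higher by at least 2-fold. Among 12 probes of 9 markers of cytotoxic lymphocytes, 3 were detected on all arrays, and their list had a summed linear level of 1.85, 2.41, 1.98 and 2.21 on the control, 4 h, 20 h and 32 h arrays. *Cd3d*, *Cd8a*, *Gzma*, *Gzmb*, *Klrb1c* and *Ptprc* stayed in the background on all 4.

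*Ovgp1*, the oviduct glycoprotein, a chitinase-like protein without enzyme activity (chromosome 3), had levels of -3.44, 1.996, -3.64 and -3.28 on the control, 4 h, 20 h and 32 h arrays. The difference was 5.43 ± 0.25 at 4 h (43.2-fold), and the late arrays lay on either side of the control, by -0.21 and 0.16. Of 10 probes for the chitinase-like family, 5 were measured at 4 h and in the control, and *Ovgp1* was the only one of them past 2-fold. *Chi3l1*, *Chi3l3*, *Chid1* and *Ctbs* had differences from -0.27 to 0.33. For 6 epithelial markers with 7 probes, 2 probes were detected on all arrays, with differences of 1.10 and 1.17, and *Epcam*, *Cdh1* and *Krt18* were on no array well above background. The summed level of that list was 0.69 in the control, 1.65 at 4 h, 0.89 at 20 h and 0.78 at 32 h, and its part in the *Ovgp1* result was not tested.

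*Slc23a3*, an orphan member of the nucleobase and ascorbate transporter family, shared the steep part of this course and missed the group at 32 h. Its levels were -2.499 in the control, 2.24 at 4 h, -1.78 at 20 h and -1.39 at 32 h. The differences were 4.74 ± 0.22, 0.72 ± 0.22 and 1.11 ± 0.22, the last of which is beyond the window of 1 by less than its spot error. Its relative *Slc23a2*, a vitamin C transporter, had 0.59 ± 0.21 at 4 h with the measured probe, and *Slc23a1* stayed in the background on all 4 arrays. Of 7 probes for 4 kidney tubule markers, 2 were detected at 4 h and none in the control. With a window of 1.5, or after normexp background correction, *Slc23a3* was a member.

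**Figure D2:**
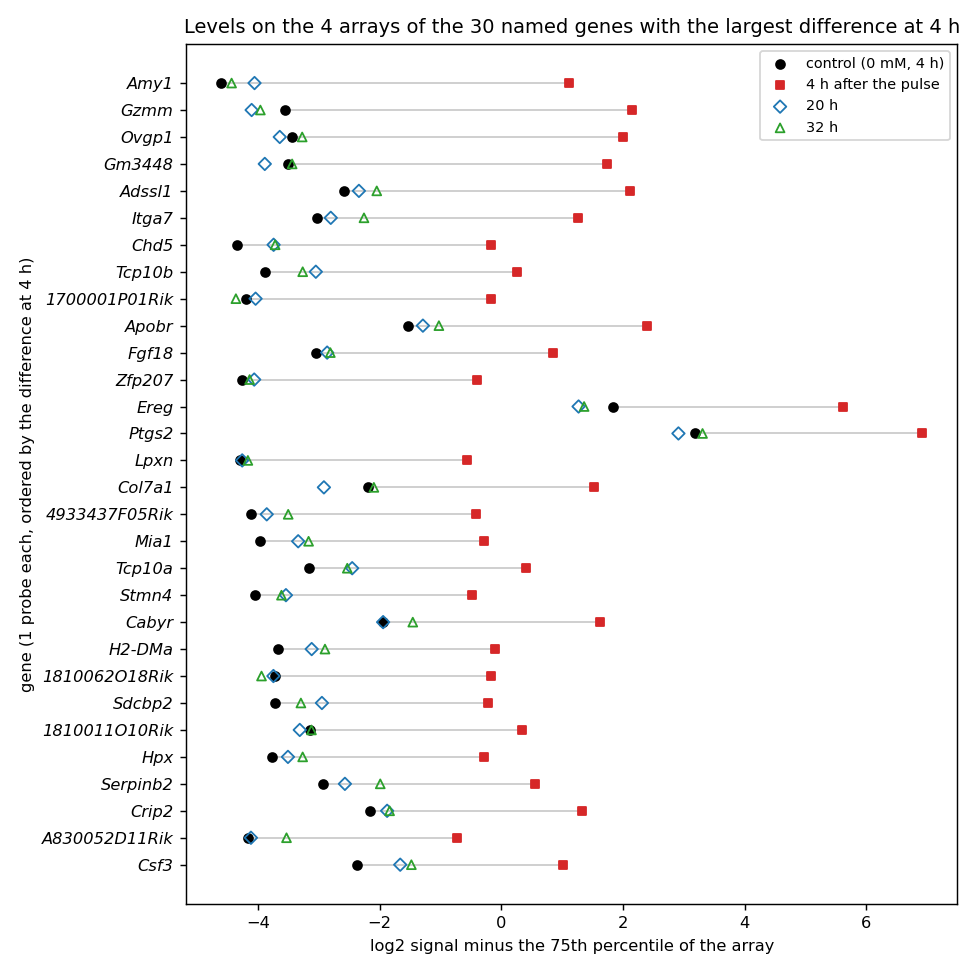
Levels (log2 signal minus the 75th percentile of the array, horizontal axis) on the 4 arrays for the 30 named genes with the largest difference at 4 h, 1 probe each. Filled circles are the control, squares 4 h, diamonds 20 h and triangles 32 h, and in every gene the square stands apart to the right, from *Amy1* (5.72) down to *Csf3* (3.40).

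The members were sorted by role with earlier results known. Genes without a member probe were given no role, so no share over all probes tested stands beside the role counts. Secreted signals and their makers formed a group of 9 genes with 10 probes and a median difference of 3.28 at 4 h. *Ptgs2*, the inducible cyclooxygenase that makes prostaglandins, had 3.19, 6.92, 2.91 and 3.31 on the control, 4 h, 20 h and 32 h arrays, a difference of 3.73 ± 0.20. Its probe is printed 10 times, and the differences of the 9 usable spots lay between 3.67 and 3.81 with an SD of 0.043. *Ereg* (epiregulin), a ligand of the epidermal growth factor receptor, had 1.83, 5.61, 1.27 and 1.36, higher by 3.77 at 4 h and lower than the control by -0.56 and -0.47 later. *Fgf18*, a fibroblast growth factor, had -3.05, 0.84, -2.87 and -2.81, a difference of 3.89 ± 0.23, and its overlapping second probe was at least 23.4-fold higher at 4 h. The 4 h array was the high one for each of these 3 genes.

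The cytokines of the group are products of activated fibroblasts as well as of immune cells. *Il6* had -0.30, 3.04, -0.22 and 0.33, so that the 4 h array was higher by 3.34 and the 32 h array by 0.63. *Csf3*, the granulocyte colony-stimulating factor, had -2.38, 1.02, -1.66 and -1.48, and stayed higher at 20 h (0.72) and 32 h (0.90) within the window. *Cxcl1*, a chemokine that attracts neutrophils, had 4.37, 6.995, 4.43 and 4.82. *Ccl25*, a chemokine of thymus and gut, was a member with 2 probes, at 3.23 and 3.14, and a further probe of it had 1.99 ± 0.30 at 4 h. *Il19* and *Ghrl*, the gene of the stomach hormone ghrelin, had 2.91 and 2.502, the latter the smallest difference of all members.

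Enzymes made up 10 genes and 11 probes, with a median of 3.01 at 4 h. After *Amy1* and *Gzmm* came *Adssl1*, the muscle form of adenylosuccinate synthase in purine synthesis, with -2.58, 2.11, -2.34 and -2.05 and a difference of 4.69 ± 0.22. *Hmox1*, the heme oxygenase that is a classic Nrf2 target, had 2.02, 5.31, 1.96 and 1.88 with 1 probe and -1.33, 1.58, -1.43 and -1.29 with the other. Its differences of 3.29 and 2.91 thus disagreed by 0.38 at 4 h, and both probes were within 0.15 of the control at the late times. *Mthfd2*, a mitochondrial enzyme of one-carbon metabolism, had -1.08, 1.58, -1.32 and -1.17. *Car15*, a carbonic anhydrase, kept 0.79 and 0.83 at 20 h and 32 h after 2.60 at 4 h, close to the upper edge of the window.

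Adhesion, matrix and surface proteins came to 10 genes and 11 probes with a median of 3.501. *Itga7*, the integrin alpha chain by which muscle cells hold laminin, had -3.03, 1.25, -2.81 and -2.26, a difference of 4.29 ± 0.23. *Apobr*, a receptor for apolipoprotein B, had -1.54, 2.40, -1.29 and -1.03. *Col7a1*, the collagen of anchoring fibrils, had -2.20, 1.53, -2.92 and -2.10, and thus lay lower than the control at 20 h, by -0.72, and level with it at 32 h. *Sdcbp2*, the adaptor syntenin-2, had -3.71, -0.21, -2.95 and -3.30. *Lpxn* (leupaxin, a focal adhesion adaptor) and *H2-DMa* (a chaperone of peptide loading on MHC class II) had 3.73 and 3.57 at 4 h. The 2 probes of *Itga10*, a collagen-binding integrin chain, share 54 bases and had 2.77 and 2.62. *Procr*, the endothelial protein C receptor, had 1.94, 4.70, 2.07 and 2.14.

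Proteins of microtubules, cilia and sperm were 9 genes with 11 probes, and their median at 4 h was 3.22. An unnamed transcript annotated as a dynein heavy chain domain protein led with 4.30 ± 0.35. *Tcp10b* and *Tcp10a*, testis genes of the t-complex, had 4.15 and 3.58 and can share signal as near copies. *Stmn4*, a stathmin that binds tubulin, had -4.05, -0.48, -3.54 and -3.62. *Cabyr*, a calcium-binding protein of the sperm tail, had 3.57 and 3.22 with its 2 probes, and *Ttll3*, a ligase that adds glycine to tubulin, had 2.84 and 2.63. *Spef1*, a sperm flagellar protein, had 0.69, 3.48, 1.14 and 1.10. The group had a median of 0.30 at 20 h and 0.44 at 32 h.

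Nuclear proteins were 6 genes with 7 probes (median 2.86 at 4 h). *Chd5*, a chromatin remodeler best known from neurons, had -4.35, -0.17, -3.75 and -3.72, a difference of 4.19 ± 0.33. With normexp correction its difference was 3.02. *Plagl1*, a zinc finger protein from an imprinted gene, had 0.83, 3.51, 0.82 and 0.33 with 1 probe and 1.02, 3.63, 1.01 and 0.53 with the other. Its 2 member probes differed by 0.07 at 4 h, were at the control level at 20 h and below it by about the same amount at 32 h, -0.50 and -0.49. These 2 probes share a run of 26 bases, and further probes of *Plagl1* had 0.44 and 1.02 at 4 h. *Lbx2* and *Spdef*, both transcription factors, had 3.30 and 2.86.

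Other secreted and plasma proteins were 6 genes with a median of 3.49 at 4 h. After *Ovgp1*, *Mia1*, a protein of cartilage and melanoma cells, had -3.97, -0.28, -3.34 and -3.17. *Hpx* (hemopexin), which binds heme, had 3.49 ± 0.29. *Serpinb2*, an inhibitor of plasminogen activators, had -2.93, 0.56, -2.57 and -1.99. Its differences were 3.49 at 4 h, 0.35 at 20 h and 0.94 at 32 h, the last higher than that at 20 h. *Apoe* and *Mttp*, both of lipoprotein assembly and transport, had 2.69 and 2.88, and over the 9 usable spots of the *Apoe* probe the SD was 0.059.

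Transporters and channels were only 3 genes. *Slc7a1*, the carrier of cationic amino acids, had 2.36, 5.52, 1.89 and 1.89, higher by 3.15 at 4 h and lower by -0.47 at both late times. *Slc3a2*, the heavy chain of amino acid exchangers, had 3.64, 6.20, 3.82 and 3.92. *Grin3b*, a subunit of glutamate receptors, had -3.06, -0.17, -3.99 and -3.20, and with -0.94 it came nearest to the lower edge of the window at 20 h. Handling of proteins and lipids inside the cell took 5 genes at 2.55 to 2.96. Among them were *Dnajb9*, a cochaperone of the endoplasmic reticulum, with -3.13, -0.53, -3.17 and -2.78, and *Crabp2*, which carries retinoic acid, with -0.91, 2.05, -0.81 and -0.89. A brighter probe of *Dnajb9*, at 0.76 in the control, was higher by 2.12 ± 0.20 at 4 h and was no member.

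The remaining 24 gene names with 25 probes have another or no known role, and their median was 3.08. *Gm3448* had -3.51, 1.74, -3.89 and -3.44, a difference of 5.26 ± 0.26. Its second probe, 56 bases away, had -2.65, 0.53, -4.10 and -3.99, which is 3.17 ± 0.22 at 4 h and far below the control later, by -1.45 and -1.34, and so was no member. *1810011O10Rik*, now *Tcim*, a regulator of Wnt signaling, was seen with 2 probes, at 3.49 and 3.41, and over 8 usable spots of the second the SD was 0.079. *4933437F05Rik*, now *Noxred1*, had 3.71 and *1700001P01Rik* had 4.04. *1810062O18Rik*, *Crip2* (a LIM domain protein) and *A830052D11Rik* had 3.54, 3.48 and 3.44. *Ndrg1*, a gene induced by low oxygen and by metal chelation, had 3.57, 6.22, 4.11 and 4.55. Its differences were 2.65 at 4 h, 0.54 at 20 h and 0.98 at 32 h, the last being the highest late difference of any member. One unnamed probe on chromosome 13 shares 45 bases with a probe of *Nid1*, and their differences at 4 h were 2.58 and 2.44.

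Most of the named members were on no list of standard stress genes, although listed probes were members more often than all probes tested. Of the 70 named genes, 9 were on 1 of 11 stress lists drawn up from textbook knowledge, namely *Ptgs2*, *Csf3*, *Il6* and *Cxcl1* (NF-kappa-B), *Hmox1* (Nrf2), *Mthfd2* and *Slc3a2* (ATF4), *Dnajb9* (endoplasmic reticulum stress) and *Ndrg1* (hypoxia). The other 61 genes were on none, though a gene absent from these lists can still be a stress target. The lists together had 268 probes tested, of which 10 were members (3.73%, against 0.452% over all probes tested). By at least 2-fold, 97 of the 268 were higher at 4 h (36.2%, against 8.42%), and the median difference was 0.70. No probe tested was past 2.5 at 4 h on the lists of HSF1 targets, immediate early genes, metal response, interferon and clock. Of the 32 immediate early probes tested, 14 were past 2-fold. Only 32 of 41 immediate early, 13 of 27 interferon and 15 of 27 clock probes were tested. The rest were not detected on all 4 arrays and could not be counted. On the p53 list, *Cdkn1a* passed 2.5 and did not return.

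Values of the 61 genes on no list and the 9 on a list overlapped at 4 h. The 67 probes on no list had 2.502 to 5.72 at 4 h with a median of 3.14, and the 10 probes on a list had 2.57 to 3.73 with a median of 2.79. In the control, 42 of the 67 probes were within 2 log2 units of the lowest level detected on that array, and 1 of the 10. Over all 89 members this was 52 (58.4%), against 16.4% of all probes tested, and 24 (27.0%) lay within 1 unit, against 5.31%. The base composition was alike, with a median GC content of 43.3% among members and among all probes tested. A further 207 probes could not be members because the control did not detect them, although their 4 h level was past its detection limit by a bound of at least 2.5. The part of the low control signal in these results was not tested.

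Most members lay close to the control at both late times. Of the 98 probes past 2.5 at 4 h (0.498% of those tested), 89 were back at both late times, or 90.8%, and of all probes tested 96.7% lay within 1 of the control at both. In 57 of the 89, both late differences were within 2 spot errors of 0. For 9 members both late arrays were above the control by more than that, and for 2 both were below. The median was 0.12 at 20 h and 0.26 at 32 h. Above the control were 56 and 69 of the 89 members at these times, against 50.3% and 49% of all probes tested. Of the 89 members, 62 were higher at 32 h than at 20 h, against 47.1% of all probes tested, though the median step was 0.10. All of these counts use values by which the members were chosen, and the threshold at 4 h favors a low control value. The comparisons with all probes are therefore a description only.

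**Figure D3:**
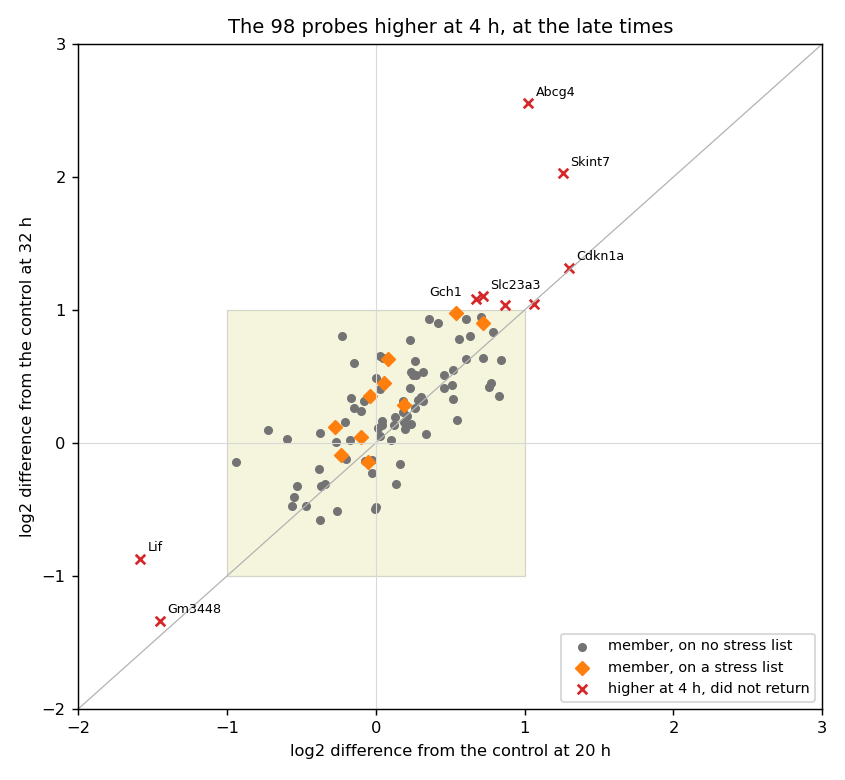
Log2 difference from the control at 20 h (horizontal axis) and 32 h (vertical axis) for the 98 probes that were at least 2.5 higher at 4 h. The square is the window of 1, diamonds are members on a stress list, crosses are the 9 probes outside, and the points above the diagonal line are the probes higher at 32 h than at 20 h, 62 of the 89 members.

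The 9 probes that did not return show where the window falls. *Slc23a3* and *Gch1*, the first enzyme of tetrahydrobiopterin synthesis, were outside at 32 h alone, at 1.11 and 1.08. *Cdkn1a*, the p21 inhibitor of the cell cycle, had 3.57 at 4 h and 1.30 and 1.32 later. *Abcg4*, a sterol transporter, and *Skint7* had 2.56 and 2.03 at 32 h. *Lif*, a cytokine of the interleukin-6 family, had 2.55 at 4 h and -1.58 at 20 h. Just inside the window, *Ndrg1*, *Spdef*, *Serpinb2*, *Ttll3* and *AA415398* had 0.90 to 0.98 at 32 h, and *Grin3b*, *Tcp10b*, *Pcdh7*, *Car15* and *Sdcbp2* were nearest to it at 20 h. At 4 h the nearest below the threshold were *Ppp1r3f*, *Ssh3*, *4921517L17Rik*, *Tnnc2* and *Trib3*, at 2.44 to 2.47, and the nearest above it were *Ghrl*, *Pcdh7*, *Rnf19b*, *Slc3a2* and *Car15*, at 2.502 to 2.60.

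Other probes of the same genes did not always share the difference. In 7 genes 2 probes were members, and their differences at 4 h disagreed by 0.07 to 0.38. In 23 genes there were 30 further probes that were not members. Of these, 17 were measured on the control and 4 h arrays, 10 were detected at 4 h only, with bounds from 1.07-fold to 23.4-fold, and 3 were not well above background. Among the 17 measured, 1 was past 2.5, 6 lay from 1 to 2.5, 9 were within 1 of the control, and 1 was lower by at least 1.

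Those 9 probes near the control belong to 9 genes, among them *Aoc2*, *Chmp3*, *Mtap1a*, *Ncl*, *Pcdh7*, *Plagl1*, *Rnf19b* and *Zfp207*, and they had -0.09 to 0.66 at 4 h. For *Ncl* (nucleolin, of ribosome production) the member probe had -0.69, 2.11, -0.89 and -0.81, while the probe 6437 bases upstream had 4.79, 5.39, 4.37 and 4.19. For *Zfp207*, a zinc finger protein that binds microtubules in mitosis, the member had 3.87 ± 0.33 and a probe 7907 bases upstream 0.42 ± 0.20. *Chmp3*, a part of the ESCRT-III membrane-cutting complex, had 2.72 with the member probe and -0.09 and -1.26 with probes 2453 and 1848 bases upstream.

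The member probe lay downstream of the probe near the control in 8 of the 9 genes, and 188 bases upstream of it in *Aoc2*. For comparison, all pairs of tested probes of 1 gene on 1 strand that were apart by at least 1.5 at 4 h were examined. Without a member probe there were 165 such pairs in 130 genes, and the higher probe was the downstream one in 79 (47.9%). With a member probe there were 15 pairs in 11 genes, and it was downstream in 13 (86.7%). The 2 sets of pairs are unlike. In a pair with a member, the rule made the higher probe one that rose by at least 2.5. Pairs without a member can also be apart because 1 probe was lower than in the control. Pairs of 1 gene share probes, and *Plagl1* and *Chmp3* each enter with more than 1 pair. The exon, intron or UTR at these positions was not assigned, since no annotation of the mm9 build was used here.

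**Figure D4:**
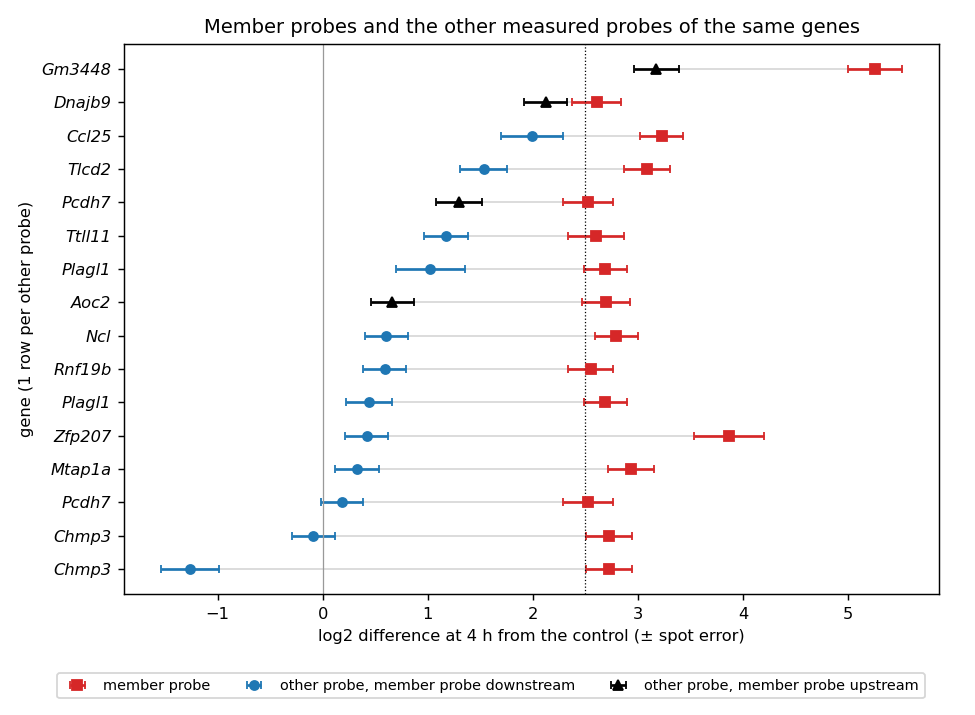
Log2 difference at 4 h from the control (horizontal axis, bars are the spot error) for the member probe (squares) and 16 of the 17 other measured probes of the same gene, 1 line per other probe. Circles mark other probes that have the member probe downstream of them, triangles those that have it upstream, and the dotted line is the 2.5 threshold, which of the other probes only that of *Gm3448* (3.17) passes.

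Position along the chromosomes was not narrow. Members lay on 20 chromosomes of the mm9 build, at most 9 of them on chromosome 2. Within 10 kb upstream on the same strand, 16 of the 88 members with a position had a probe of another gene (18.2%), against 10.4% of the tested probes. In 14 of them that upstream probe was also well above background in the control (15.9%, against 7.49%), as for *Spef1* behind *Cenpb*, *Apoe* behind *Tomm40* and *1700001P01Rik* behind *Rpl23*. The upstream probes of members that were measured had a median difference of 0.56 at 4 h, against 0.22 for those of all tested probes. Of the 14, 2 were higher by at least 2-fold (of the 1463 over all tested probes, 119), and 1, the *Mars* probe before an unnamed transcript on chromosome 10, was lower, at -1.11. Whether signal from an upstream gene takes part in the member differences was not tested.

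Settings of the processing changed the size of the group. With 8 other ways of scaling, background correction, value table and treatment of outlier spots, between 52 and 89 probes met the thresholds, and 38 members did so under all of them. Among these 38 were *Amy1*, *Gzmm*, *Ovgp1*, *Adssl1*, *Itga7*, *Chd5*, *Fgf18*, *Ereg*, *Ptgs2*, *Il6* and both probes of *Hmox1*. The amylase transcript TC1733495, *Tcp10b*, *Tcp10a*, *Sdcbp2*, *Serpinb2* and, of the genes on stress lists, *Cxcl1*, *Slc3a2*, *Ndrg1*, *Mthfd2*, *Csf3* and *Dnajb9* were not.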

How the data were processed

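Total RNA was labelled with Cy3 and hybridized to 4 one-color 44K arrays, 1 per group, with positions on mm9. Per the file headers and the submitters' processing notes, the authors deposited scanner output of Agilent Feature Extraction 10.7.3.1: background-subtracted intensity per spot, its error, the mean and background signal, and flags for detection, saturation and outliers, together with a table of signal intensities that equals the same values divided by 1 constant per array. No array values were pooled.

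From the deposited intensity, log2 was averaged over the spots of a probe without an outlier flag (125 to 161 spots per array left out; no spot was saturated), and the 75th percentile over the 39429 probes was subtracted. Detection of a probe required the flag for signal well above background on 50% or more of its spots. A probe detected on 1 side has a bound over the higher of its own signal and the lowest detected level. Members needed detection on all 4 arrays, at least 2.5 at 4 h and at most 1 in size at 20 h and 32 h. The members, the gene lists, the roles and the motifs were chosen with earlier results of these data known. Genes named are *Amy1*, *Gzmm*, *Ovgp1* and *Slc23a3*, members with a symbol among the 30 with the largest difference at 4 h, members on a stress list, members with more than 1 probe, and the 5 probes with a symbol nearest each side of each threshold; other genes are examples chosen after their values were seen. Names came from the probe annotation, updated through RefSeq (GRCm38.p6). The number of arrays limits the precision, and p-values were not computed. Alternatives were other scalings (array median, detected probes, quantile, spike-in probes, none), normexp with an offset of 50 (limma 3.58.1, R 4.3.3), the deposited table, outlier spots kept, other detection flags, thresholds and baselines, and 1 probe per gene name. Steps were tested on simulated data and run with Python 3.11.15, numpy 2.4.6, pandas 2.3.3 and matplotlib 3.10.9. A result that needs an item withheld for evaluation is not reported here, and the plot of other probes leaves its line out.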

Additional observations from a re-analysis of the deposited data

How the results depend on the processing

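No paired analysis was possible because each group is 1 array, and no array could be left out for the same reason. The median difference of the 89 members at 4 h was 3.08, and it moved beyond the median spot error with median scaling (2.72), spike-in scaling (2.75), no scaling (2.80) and normexp (2.64). The number of members, 89, was 57, 53, 52 and 55 under these settings, 684 without a detection filter (shared with the 89, 13.0% of the 684), 239 with the flag for positive and significant signals, 205 and 48 with a difference of at least 2 or 3, and 50 with a return within 0.5. Members on stress lists, 10 probes, were 5 with median scaling, 4 with spike-in scaling, with no scaling and with a difference of at least 3, 16 without a detection filter and 21 with a difference of at least 2. The share that returned, 90.8%, was 82.8% with spike-in scaling, 77.6% with no scaling, 74.2% without a detection filter, 72.2% with the positive and significant flag, and 51.0% and 96.9% with a return within 0.5 or 1.5. Other settings, including quantile normalization, the detected-probe percentile, the deposited table, outlier spots kept, 1 probe per gene name and a baseline of 3 arrays, kept the number within 1.5 times. The cause was not tested. Probes near the background carry the largest spot errors, up to 0.35, and the control level of 24 members lies within 1 log2 unit of the lowest detected one. For 49 probes of named genes, the difference at 4 h was recomputed under 8 settings. It moved by more than the spot error in 174 of 392 cases and by less in 218. With normexp, *Chd5*, *Zfp207* and *Lpxn* fell to 3.02, 2.67 and 2.55, while the brighter *Ptgs2* and *Ereg* kept 3.70 and 3.73.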
